A study of Mus musculus with 17 samples.

Results

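The genes described here code for subunits of ion pumps that spend ATP to move sodium and calcium across membranes. They are Atp1b1 and Atp1b2 (sodium pump beta subunits), Atp2a2 (the calcium pump of the endoplasmic reticulum) and Atp2b1, Atp2b2, Atp2b3 and Atp2b4 (the plasma membrane calcium pumps). A probe set, the group of short array probes that measures 1 transcript region, was taken as a member when its only gene symbol in the array's annotation was 1 of these 7. This gave 22 of the 45037 probe sets analysed and 7 of 18193 genes. Atp2a2 had 6 probe sets, Atp1b1 5, Atp2b1 and Atp2b2 3 each, Atp1b2 and Atp2b3 2 each and Atp2b4 1, and 0 further probe sets carried a member symbol together with another.

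The arrays, Affymetrix whole-genome mouse arrays, measured mRNA from the cortex of adult female C57BL/6 mice that received no treatment. Aliquots of 1 mRNA preparation were diluted to amounts near those of a single cell and amplified independently as antisense RNA (aRNA), that is, copied into cDNA and transcribed in vitro in repeated rounds, to ask how well the levels survive. The 17 arrays form 7 groups: 5 µg of bulk mRNA without amplification (1 array), 10 pg after 2 rounds (1 array), and 3 arrays each of 1 pg after 2 rounds, 0.1 pg after 2 rounds, 10 pg after 4 rounds, 1 pg after 4 rounds and 0.1 pg after 4 rounds. The number of brains behind the preparation is not stated, and all arrays share it, so every p-value below weighs how far repeat amplifications scatter and says nothing of animals. A level in this whole-cortex preparation holds both the number of cells of a type and their RNA per cell, which cannot be told apart, and both are the same for all aliquots.

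The sodium pump exchanges sodium for potassium and keeps the gradients that neurons discharge with every impulse. Its beta subunit helps the pump to fold and carries it to the cell surface. Atp1b1 codes for the beta subunit found in most tissues and in neurons, and Atp1b2 for one known from glia as an adhesion molecule. Calcium that enters a neuron is cleared by the pump encoded by Atp2a2 (SERCA2), which fills the endoplasmic reticulum, and by plasma membrane pumps (PMCAs), which expel it. Of the PMCA genes, Atp2b1 and Atp2b4 are expressed in many tissues, whereas Atp2b2 and Atp2b3 are known mainly from the nervous system.

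A level is the log2 value of a probe set relative to the median of its array, after each array was scaled to the same spread. Probe sets differ in how brightly they hybridize, so levels are compared between groups within a probe set. A probe set is called when limma's adjusted p, over all 45037 probe sets, is under 0.05. On the bulk array, the 6 pan-neuronal markers averaged a level of 3.65 and 4 excitatory markers 2.45, with 0 of either below the array median. The 5 heart and skeletal muscle markers averaged -0.26, with 4 of them below the median. Other lists of cortical cells were partly below the median: 2 of 5 inhibitory, 2 of 6 astrocyte, 2 of 5 microglial, 1 of 5 oligodendrocyte and 1 of 4 vascular markers. Many probe sets of an array shared a value. The array of 10 pg after 2 rounds held 872 distinct values, those of 0.1 pg after 2 rounds between 1258 and 2102, bulk 3771 and those of 0.1 pg after 4 rounds between 3316 and 4345, so the number did not follow input. The level -0.72 of replicate 1 of 0.1 pg after 2 rounds, for example, was that of Atp1b2 1422009_at, Atp2b1 1428936_at and 1428937_at and Atp2b4 alike, each of which shared it with 4647 others. Such shared values have no order among themselves.

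The array-wide rank of each gene, by the median of its probe sets, gives a first view. In bulk mRNA, Atp1b1 stood at percentile 98.2, Atp2b2 at 98.1 and Atp1b2 at 97.1, the 3 members in the top 5% of genes. Atp2a2 followed at 94.9, Atp2b1 at 91.5, Atp2b4 at 66.9 and Atp2b3 at 26.9. After 4 rounds from 10 pg, 4 members were in the top 5%: Atp1b1 (98.6), Atp2b1 (97.6), Atp2b2 (97.5) and Atp1b2 (96.3). From 1 pg after 4 rounds there were 3, with Atp2b2 at 91.5, and from 0.1 pg after 4 rounds Atp1b2 alone was left, at 96.2. Atp1b2 was also the only member in the top 5% from 1 pg (96.5) and from 0.1 pg (97.7) after 2 rounds. The lowest ranks of genes that were in the top 5% of bulk were those of Atp2b2, which stood at percentile 29.0 from 0.1 pg after 2 rounds and at 46.6 from 0.1 pg after 4 rounds.

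**Figure D1:**
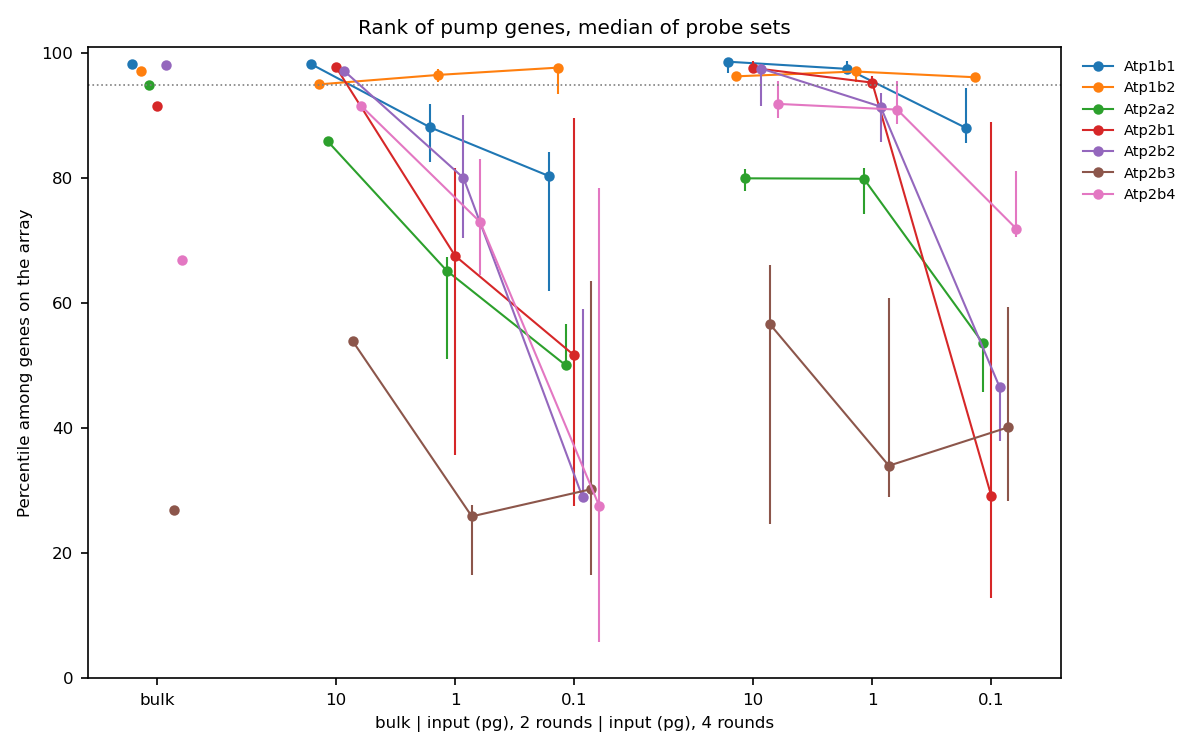
Percentile of each pump gene among 18193 genes (vertical axis) in bulk mRNA and by input in pg after 2 and 4 rounds (horizontal axis). Points are the median over the arrays of a group, bars run from the lowest to the highest array, single arrays have no bar, and the dotted line marks the top 5%. Atp1b2 stays in the top 5% in all 7 groups, while Atp2b2 runs from 98.1 in bulk to 29.0 from 0.1 pg after 2 rounds.

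Atp1b1, the common beta subunit, was high in bulk with 4 of its 5 probe sets, and 3 of those lost most of their level at the lowest input. The probe set 1451152_a_at stood at 5.56 in bulk and 5.35 from 10 pg after 2 rounds. The series of 4 rounds gave 7.07, 6.34 and 6.73 from 10 pg, 5.52, 4.51 and 6.03 from 1 pg, and 1.70, 2.04 and 4.59 from 0.1 pg. With 2 rounds the levels were 2.09, 2.59 and 1.49 from 1 pg and 1.81, 1.69 and 0.86 from 0.1 pg. The arrays of 10 pg after 4 rounds lay above those of every other group. Replicate 3 of 0.1 pg after 4 rounds stood apart from its group and reached into the range of 1 pg.

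A second Atp1b1 probe set, 1423890_x_at, ran in parallel (r = 0.98 over the 17 arrays, which share 1 RNA preparation). It read 5.32 in bulk and 5.65 from 10 pg after 2 rounds. After 4 rounds its levels were 6.72, 5.58 and 6.52 from 10 pg, 5.20, 4.28 and 6.03 from 1 pg, and 1.80, 1.89 and 3.26 from 0.1 pg. The arrays of 0.1 pg were below all arrays of the other inputs. In the series of 2 rounds it stood at 2.00, 2.80 and 1.57 from 1 pg and at 0.57, 1.24 and 0.44 from 0.1 pg, without overlap between the inputs.

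The remaining Atp1b1 probe sets did not share 1 course. The one with the highest mean, 1418453_a_at, had the narrowest range of these 4: 4.58 in bulk, 5.51 from 10 pg after 2 rounds, and, after 4 rounds, 5.34, 5.05 and 4.11 from 10 pg, 5.24, 4.79 and 4.50 from 1 pg and 3.52, 3.26 and 3.39 from 0.1 pg. Its arrays of 10 and 1 pg overlapped, and those of 0.1 pg were below both. The probe set 1439036_a_at had the widest spread of any member within a group, a standard deviation (SD) of 3.05 from 1 pg after 4 rounds, where it read 2.45, -3.06 and 1.97. It was at 4.84, 5.17 and 4.04 from 10 pg and at -2.91, 0.84 and -1.16 from 0.1 pg after 4 rounds, and at 4.78 in bulk. The fifth, 1455949_at, lay between 0.27 and 4.34 on all arrays, and its neighbouring groups overlapped throughout the order of its levels.

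Atp1b2, the beta subunit known from glia, stood high in every group by 1 of its probe sets. This one, 1435148_at, read 6.22 in bulk and 6.84 from 10 pg after 2 rounds. The smaller inputs after 2 rounds gave 6.02, 6.43 and 6.27 from 1 pg and 7.03, 6.86 and 6.66 from 0.1 pg. Values after 4 rounds were 6.42, 6.17 and 6.20 from 10 pg, 6.04, 5.84 and 6.62 from 1 pg and 5.50, 5.54 and 6.02 from 0.1 pg. Of the 22 members it was the only one above the 90th percentile of its array on all 17 arrays, where it stood between percentiles 98.0 and 99.4. The highest group mean, 6.85 ± 0.18 (SD, n = 3) from 0.1 pg after 2 rounds, and the lowest, 5.69 ± 0.29 (SD, n = 3) from 0.1 pg after 4 rounds, were both at the lowest input. That the former was highest depends on the scaling. As deposited, its arrays read 12.36, 12.32 and 12.32, beside 12.32 for bulk and 12.37 from 10 pg after 2 rounds. The other Atp1b2 probe set, 1422009_at, was scattered, with -0.72, 3.84 and 2.92 from 0.1 pg after 2 rounds, and did not follow the first (r = -0.08 over 17 arrays).

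**Figure D2:**
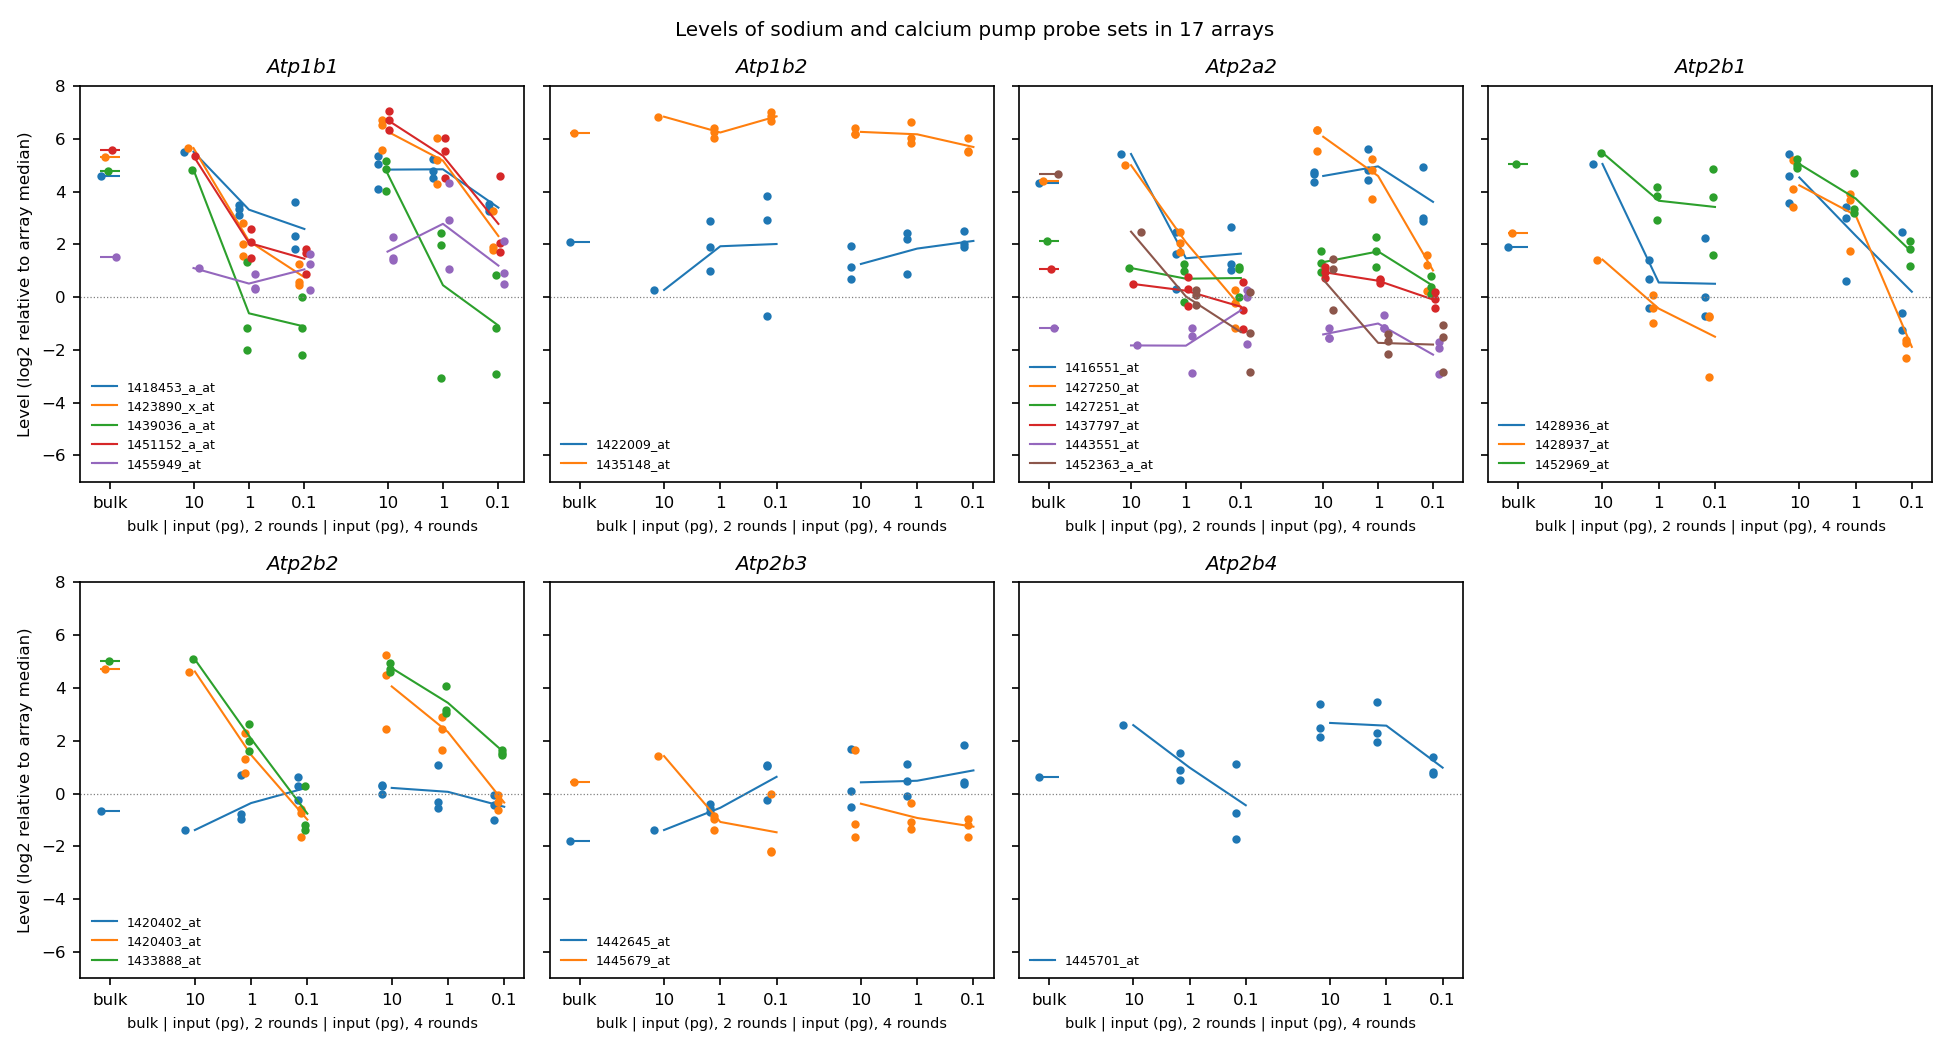
Levels of the 22 probe sets of the 7 pump genes (vertical axis, log2 relative to the array median) in bulk mRNA and by input in pg after 2 and 4 rounds (horizontal axis). Points are arrays, coloured lines join the group means of a probe set, and the dotted line is the array median. The Atp1b2 probe set 1435148_at stays between 5.50 and 7.03, while the Atp2b1 probe set 1428937_at drops from a mean of 4.24 from 10 pg to -1.89 from 0.1 pg after 4 rounds.

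Atp2a2, the pump that loads calcium into the endoplasmic reticulum, was measured by 6 probe sets that ran apart. On 1427250_at the level was 4.40 in bulk and 5.00 from 10 pg after 2 rounds. It read, after 4 rounds, 6.33, 6.34 and 5.55 from 10 pg, 4.82, 3.70 and 5.25 from 1 pg, and 1.60, 0.23 and 1.20 from 0.1 pg. It read, after 2 rounds, 1.71, 2.48 and 2.04 from 1 pg and -1.15, -0.23 and 0.27 from 0.1 pg. Within each number of rounds the inputs did not overlap, and each smaller input lay below the larger one.

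The probe set of Atp2a2 with the highest mean, 1416551_at, told inputs apart less after 4 rounds. At 1 and 0.1 pg it told rounds apart more, whereas at 10 pg the single array after 2 rounds lay above those after 4 rounds. It stood at 4.31 in bulk and 5.42 from 10 pg after 2 rounds. After 4 rounds it read 4.74, 4.66 and 4.38 from 10 pg, 5.61, 4.82 and 4.43 from 1 pg and 4.92, 3.0 and 2.90 from 0.1 pg, and the arrays of 0.1 pg overlapped both larger inputs. In the series of 2 rounds it read 2.45, 0.32 and 1.65 from 1 pg and 1.05, 1.24 and 2.65 from 0.1 pg, below all arrays of the same input after 4 rounds. By contrast, 1452363_a_at was at 4.66 in bulk, 2.48 from 10 pg after 2 rounds and at most 1.44 on any other array, with -1.66, -1.38 and -2.16 from 1 pg and -1.04, -1.51 and -2.85 from 0.1 pg after 4 rounds. The probe set 1427251_at lay between -0.18 and 2.29 on the 17 arrays and 1437797_at between -1.19 and 1.14, and 1443551_at exceeded the array median on 1 array only, at 0.27. Correlations between the Atp2a2 probe sets over the 17 arrays ran from -0.21 to 0.73.

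Atp2b1, the widely expressed plasma membrane pump PMCA1, had 3 probe sets whose levels were all lowest, by group mean, from 0.1 pg after 4 rounds. The one with the highest mean, 1452969_at, read 5.05 in bulk, 5.47 from 10 pg after 2 rounds, and, after 4 rounds, 5.24, 4.99 and 4.89 from 10 pg, 3.17, 3.36 and 4.69 from 1 pg and 1.82, 1.17 and 2.13 from 0.1 pg. These 3 inputs did not overlap. With 2 rounds it gave 2.93, 4.18 and 3.84 from 1 pg and 4.86, 1.58 and 3.81 from 0.1 pg, with overlap.

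The probe set 1428937_at of Atp2b1 spanned the widest range between inputs after 4 rounds. It read 2.44 in bulk and 1.42 from 10 pg after 2 rounds. After 4 rounds it was at 3.42, 5.21 and 4.08 from 10 pg, at 1.73, 3.68 and 3.90 from 1 pg and at -1.74, -2.31 and -1.61 from 0.1 pg, so that 10 and 1 pg overlapped and 0.1 pg stood far below. After 2 rounds it was at 0.09, -0.42 and -0.97 from 1 pg and at -0.72, -0.74 and -3.04 from 0.1 pg. The third, 1428936_at, was at 1.91 in bulk and 5.05 from 10 pg after 2 rounds, and, after 4 rounds, at 4.60, 5.43 and 3.57 from 10 pg, 3.42, 0.60 and 2.98 from 1 pg and -1.26, -0.58 and 2.46 from 0.1 pg. The arrays of 10 pg were above both lower inputs, which overlapped. The 3 probe sets correlated with each other by 0.61 to 0.65 over the 17 arrays.

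Atp2b2, the neural pump PMCA2, was lower at each smaller input by group mean on 2 of its 3 probe sets, after 4 rounds and after 2. On 1433888_at the level was 5.03 in bulk and 5.09 from 10 pg after 2 rounds. The series of 4 rounds read 4.72, 4.94 and 4.61 from 10 pg, 3.06, 3.16 and 4.09 from 1 pg, and 1.47, 1.55 and 1.65 from 0.1 pg. The series of 2 rounds read 1.61, 2.65 and 1.98 from 1 pg and 0.30, -1.39 and -1.19 from 0.1 pg. Of neighbouring groups in the order of its levels, only 1 pg after 2 rounds and 0.1 pg after 4 rounds overlapped.

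The probe set 1420403_at of Atp2b2 followed the first (r = 0.90 over 17 arrays). It read 4.72 in bulk and 4.63 from 10 pg after 2 rounds, then, after 4 rounds, 4.50, 5.25 and 2.43 from 10 pg, 2.89, 1.67 and 2.45 from 1 pg and -0.64, -0.31 and -0.06 from 0.1 pg, and, after 2 rounds, 0.79, 2.28 and 1.32 from 1 pg and -1.64, -0.74 and -0.58 from 0.1 pg. Replicate 3 of 10 pg after 4 rounds lay within the range of 1 pg, and the arrays of 0.1 pg were below all of 1 pg in both series. The third probe set, 1420402_at, stayed between -1.38 and 1.08 on all arrays and did not follow the others (r = -0.13 and -0.15).

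Atp2b3 and Atp2b4, the PMCA genes left, had the lowest ranks of the 7 in bulk. The Atp2b3 probe set 1442645_at read -1.80 in bulk, -1.38 from 10 pg after 2 rounds and between -0.68 and 1.83 on the other arrays, so bulk was the lowest of all. Its other probe set, 1445679_at, read 0.42 in bulk and was above the median on 3 of the 17 arrays: bulk, 10 pg after 2 rounds (1.42) and replicate 1 of 10 pg after 4 rounds (1.66). The pair did not move together (r = -0.44 over 17 arrays). Atp2b4, by 1445701_at, stood at 0.62 in bulk and 2.60 from 10 pg after 2 rounds. After 4 rounds it was at 2.15, 3.40 and 2.48 from 10 pg, 2.30, 1.96 and 3.46 from 1 pg and 0.83, 0.75 and 1.37 from 0.1 pg, where the lowest input lay below the overlapping larger ones. After 2 rounds it was at 0.91, 0.52 and 1.54 from 1 pg and -0.72, 1.12 and -1.72 from 0.1 pg.

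The first comparison asked what a 0.1 pg input loses against 10 pg when both pass 4 rounds. Of the 22 pump probe sets, 10 fell and 0 rose, where 4.82% of all probe sets fell and 8.86% were called in either direction. The 10 belonged to 4 genes: Atp1b1 (3 of 5), Atp2a2 (2 of 6), Atp2b1 (3 of 3) and Atp2b2 (2 of 3). The median difference over the 22 was -1.57 on the log2 scale, against 0.10 over all probe sets, and 20 of the 22 were below 0. The arrays of the 2 inputs did not overlap for 17 of the 22, all lower at 0.1 pg, as for 17.5% of all probe sets.

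Among those that fell, Atp2b1 differed by -6.12 on 1428937_at (standard error, SE, 0.69; 95% interval -7.58 to -4.66; limma adjusted p = 0.000119). The arrays of 0.1 pg were at percentiles 5.54 to 11.9 for this probe set, at values shared with 152 to 338 others, so the size of the difference rests on values at the low end of the arrays. Its other probe sets fell by 4.33 (SE 0.97; limma adjusted p = 0.0115) and by 3.34 (SE 0.67; limma adjusted p = 0.00611) on the log2 scale. Atp2a2 fell by 5.07 on 1427250_at (SE 0.53; 95% interval -6.18 to -3.95; limma adjusted p = 6.39e-05), the smallest p of the members, and by 2.47 on 1452363_a_at (limma adjusted p = 0.0360). For 1452363_a_at the arrays of 0.1 pg were at percentiles 1.68 to 23.1, again at the low end. For Atp2b2, 1420403_at fell by 4.40 (limma adjusted p = 0.000586), and 1433888_at fell by 3.20 (limma adjusted p = 0.00088).

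For Atp1b1, the near-parallel probe sets 1423890_x_at and 1451152_a_at fell by 3.96 (SE 0.55; limma adjusted p = 0.000515) and 3.94 (SE 0.65; limma adjusted p = 0.00165), and 1439036_a_at fell by 5.76 (SE 1.23; limma adjusted p = 0.00885). The arrays of 0.1 pg were at percentiles 1.47, 70.1 and 20.2 for 1439036_a_at, so its size rests in part on values at the low end. The Atp1b1 probe set of highest mean, 1418453_a_at, was not called, at -1.44 (limma adjusted p = 0.0733), although its arrays did not overlap. Atp1b2 was not called: 1435148_at differed by -0.57 with a 95% interval from -1.37 to 0.22, and 1422009_at by 0.87 with an interval from -0.97 to 2.71. The arrays of the 2 inputs did not overlap for 1435148_at either, with 0.1 pg the lower. Neither Atp2b3 probe set was called, with differences of 0.45 and -0.87, nor was Atp2b4, at -1.69 with an interval from -3.03 to -0.36 (limma adjusted p = 0.104). The Atp2a2 probe set 1416551_at was not called either, at -0.98 with an interval from -2.33 to 0.37, so the probe sets of highest mean gave no call for Atp1b1 and Atp2a2, where others of the same genes did.

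**Figure D3:**
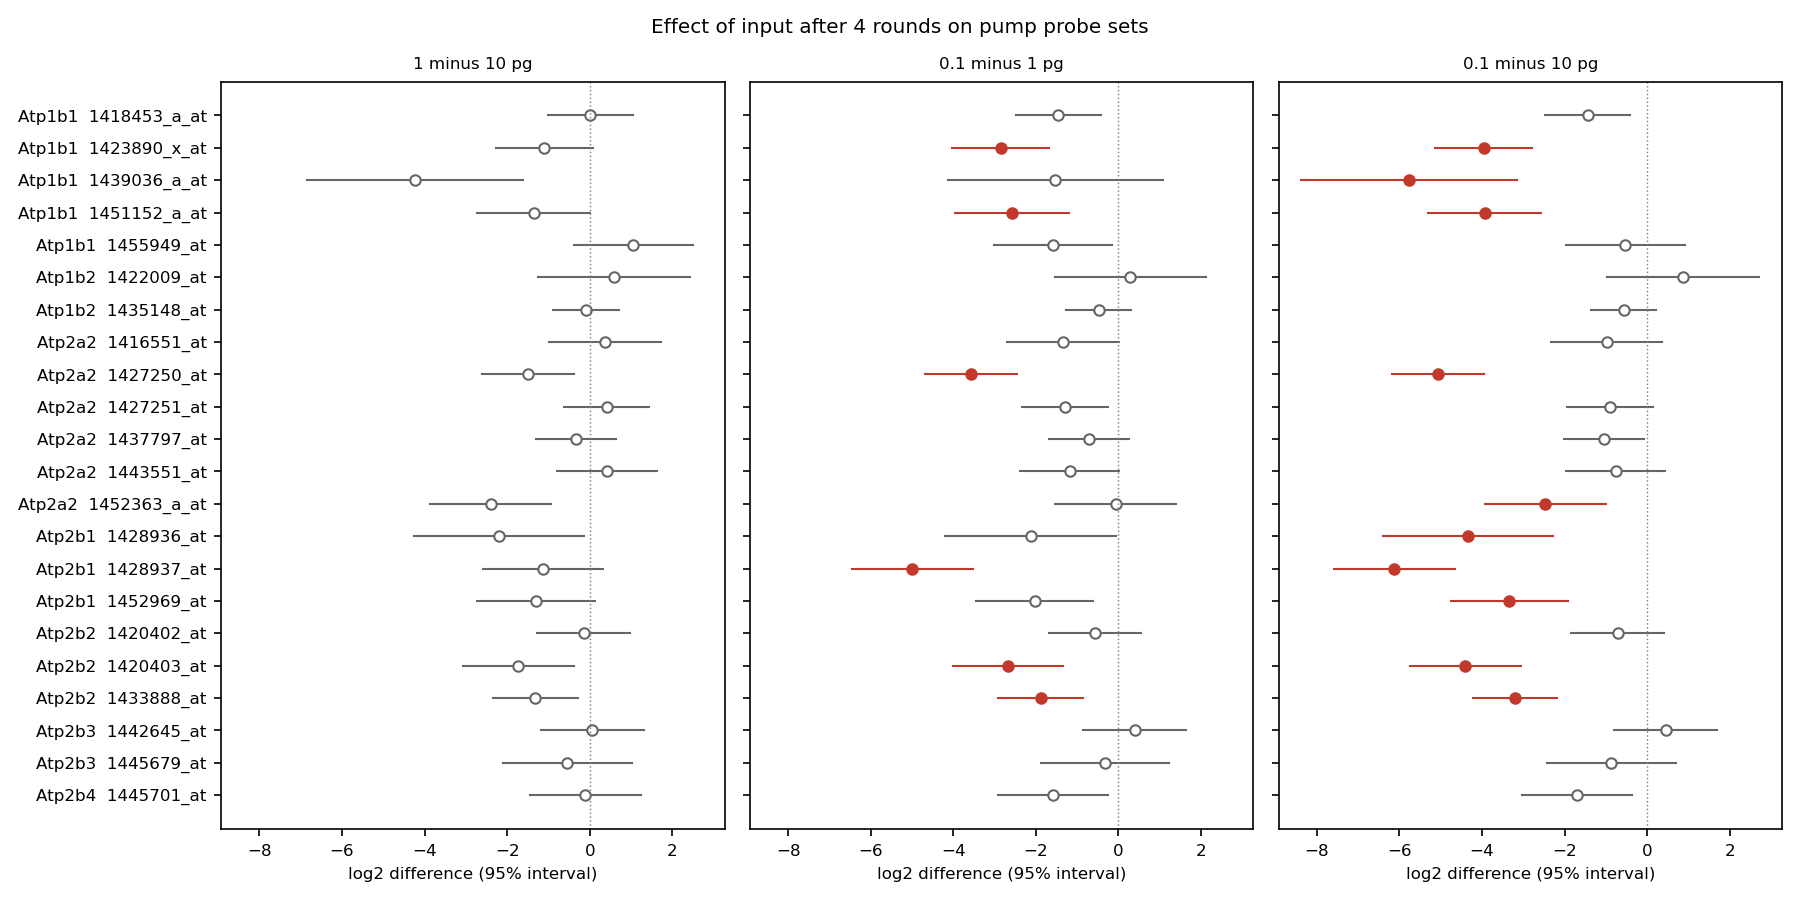
Differences between inputs after 4 rounds for the 22 pump probe sets (horizontal axes, log2 difference; left, 1 minus 10 pg; middle, 0.1 minus 1 pg; right, 0.1 minus 10 pg). Points are limma estimates over 3 arrays a group, bars are 95% intervals, and filled red points are called at an adjusted p under 0.05. There are 0 called on the left, 6 in the middle and 10 on the right, all of them below 0.

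The step from 10 to 1 pg after 4 rounds gave 0 calls by limma among the 22, where 0.646% of all probe sets were called. By the methods' t-test 0 were called, and 6 had an unadjusted limma p under 0.05, among 4276 of all probe sets. The 6 were 1439036_a_at of Atp1b1 (-4.23), 1427250_at and 1452363_a_at of Atp2a2 (-1.49 and -2.40), 1428936_at of Atp2b1 (-2.20) and 1420403_at and 1433888_at of Atp2b2 (-1.73 and -1.32). The adjusted p of the 6 was at least 0.166 by limma. The median over the 22 was -0.43, against 0.05 over all probe sets. Atp1b1 1418453_a_at differed by 0.01 with a 95% interval from -1.01 to 1.04, and Atp1b2 1435148_at by -0.09 with an interval from -0.89 to 0.71.

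The step from 1 to 0.1 pg after 4 rounds lowered 6 pump probe sets and raised 0, where 1.24% of all probe sets fell and 2.78% were called. They belonged to the same 4 genes as above. Atp2b1 1428937_at fell by 4.99 (SE 0.69; limma adjusted p = 0.00183) and Atp2a2 1427250_at by 3.58 (SE 0.53; limma adjusted p = 0.00269). Atp1b1 fell by 2.86 on 1423890_x_at (limma adjusted p = 0.0124) and by 2.58 on 1451152_a_at (limma adjusted p = 0.0438), the latter with overlapping arrays, and Atp2b2 by 2.67 on 1420403_at (limma adjusted p = 0.0332) and by 1.88 on 1433888_at (limma adjusted p = 0.0473). The median over the 22 was -1.49, against 0.03 over all. This count rested on single arrays: 2 were called without replicate 1 or without replicate 3 of 1 pg, and 2 without replicate 1 or without replicate 2 of 0.1 pg. The 3 input comparisons after 4 rounds share arrays and are not independent of each other.

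After 2 rounds, the same step from 1 to 0.1 pg lowered 2 of the 22, where 0.948% of all probe sets fell and 1.57% were called. Atp2b2 1433888_at fell by 2.84 (SE 0.48; limma adjusted p = 0.0173), from 2.08 ± 0.52 (SD, n = 3) to -0.76 ± 0.92 (SD, n = 3), and Atp2a2 1427250_at fell by 2.45 (SE 0.53; limma adjusted p = 0.0347). From 0.1 pg, 1433888_at was at percentiles 18.2 to 58.4, at values shared with 1397 to 3198 others. There 1427250_at was at percentiles 22.2 to 56.6, at values shared with 688 to 4494 others, so both sizes rest on such shared values. The second Atp2b2 probe set, 1420403_at, was close behind at -2.45 (limma adjusted p = 0.0611). Atp1b1 1423890_x_at differed by -1.37 with a 95% interval from -2.54 to -0.20, and Atp1b2 1435148_at by 0.61 with an interval from -0.19 to 1.41. The count was 1 without replicate 1 of either input and 0 without replicate 2 or without replicate 3 of 1 pg. The 10 pg input after 2 rounds is 1 array, and no contrast with it alone was run.

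The next comparison asked what 2 further rounds change at a fixed input. At 1 pg, 5 of the 22 pump probe sets were higher after 4 rounds and 0 were lower, where 1.8% of all probe sets rose and 3.53% were called. Atp2b1 1428937_at rose by 3.54 (SE 0.69; 95% interval 2.08 to 5.00; limma adjusted p = 0.0151), Atp2a2 1416551_at by 3.48 (SE 0.64; limma adjusted p = 0.0122) and 1427250_at by 2.51 (limma adjusted p = 0.0191). Atp1b1 rose by 3.30 on 1451152_a_at (limma adjusted p = 0.0161) and by 3.05 on 1423890_x_at (limma adjusted p = 0.0119). The arrays of 4 and 2 rounds did not overlap for 11 of the 22 that were higher, these 5 among them, and for 1 that was lower. The share over all probe sets is not given here, so this count cannot be weighed against it. The median over the 22 was 1.05, against -0.09 over all probe sets.

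The other members at 1 pg were not called. For Atp2b2 the differences were 0.87 on 1420403_at and 1.36 on 1433888_at, the Atp2b4 probe set was at 1.59 (limma adjusted p = 0.154), and Atp1b2 1435148_at was at -0.07 with a 95% interval from -0.87 to 0.73. Atp2a2 1452363_a_at differed by -1.76 (limma adjusted p = 0.151), opposite in sign to 1416551_at and 1427250_at of the same gene. The count of 5 became 2 without replicate 1 and 0 without replicate 3 of 1 pg after 2 rounds, and 1 without replicate 1 or without replicate 3 of 1 pg after 4 rounds.

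At 0.1 pg, 1 of the 22 rose with 4 rounds and 0 fell, where 1.41% of all probe sets rose and 3.15% were called. This was Atp2b2 1433888_at, from -0.76 to 1.55 ± 0.090 (SD, n = 3), a difference of 2.31 (SE 0.48; limma adjusted p = 0.0196). Its values after 2 rounds were shared with 1397 to 3198 other probe sets, so the size rests on them. Atp1b2 1435148_at differed by -1.16 (95% interval -1.96 to -0.37; limma adjusted p = 0.0942), and its arrays did not overlap. The size of this difference depends on the scaling. As deposited, its arrays read 11.50, 11.67 and 11.84 after 4 rounds and 12.36, 12.32 and 12.32 after 2. Atp2a2 1416551_at differed by 1.96 (limma adjusted p = 0.0953) and Atp1b1 1423890_x_at by 1.56 (limma adjusted p = 0.119). The median over the 22 was 0.18, against -0.01. The count was 4 without replicate 2 and 2 without replicate 3 of 0.1 pg after 2 rounds, and 0 without any 1 array of 0.1 pg after 4 rounds.

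**Figure D4:**
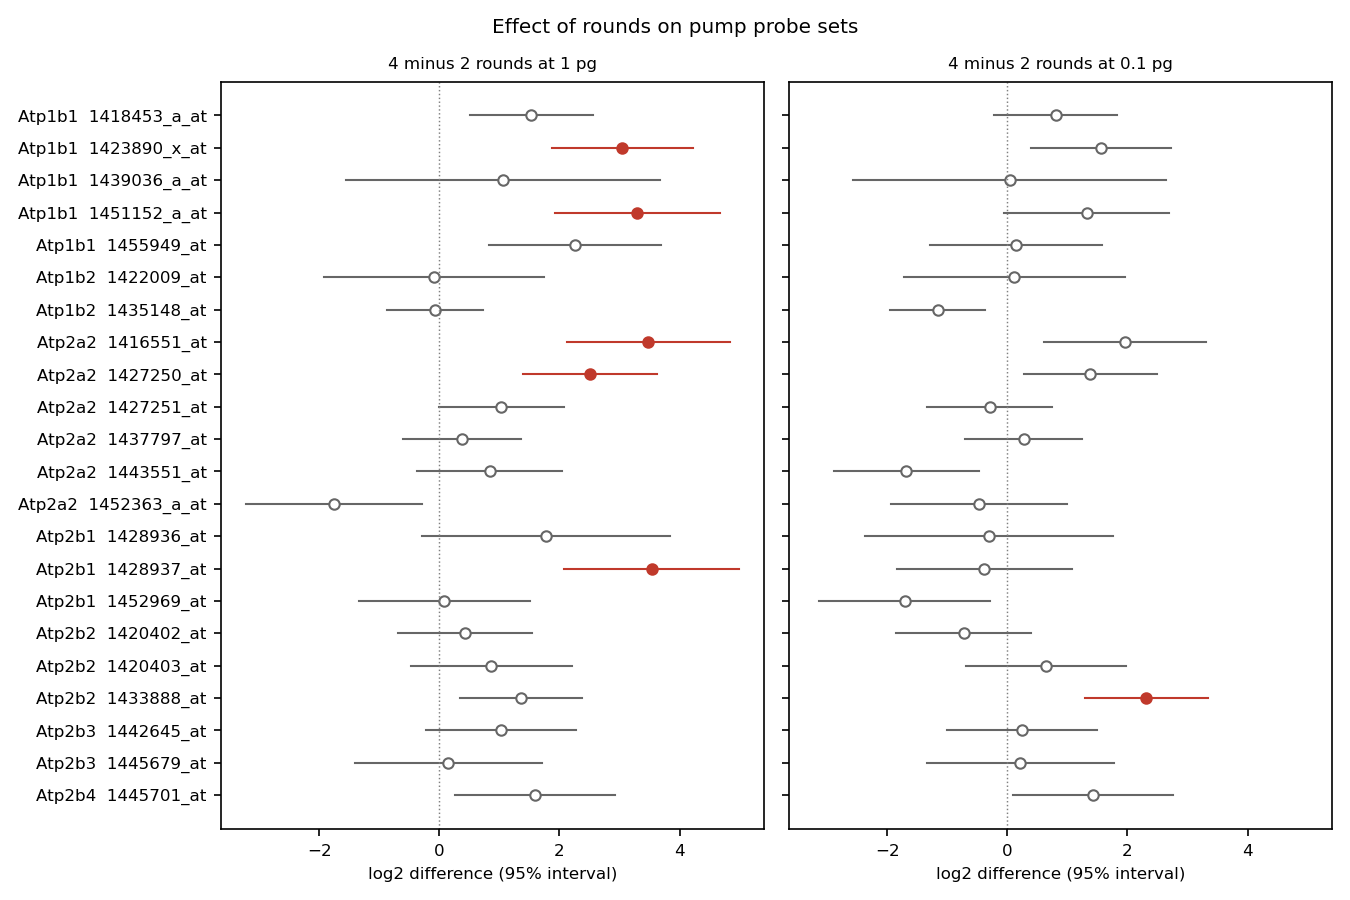
Differences between 4 and 2 rounds for the 22 pump probe sets at 1 pg (left) and 0.1 pg (right), as log2 differences on the horizontal axes. Points are limma estimates over 3 arrays a group, bars are 95% intervals, and filled red points are called at an adjusted p under 0.05. At 1 pg the 5 called members lie between 2.51 and 3.54, and at 0.1 pg the called Atp2b2 probe set lies at 2.31.

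Whether the effect of rounds differed between 0.1 and 1 pg was tested as an interaction. Of the 22, 1 was called, where 1.13% of all probe sets were called lower and 3.59% either way. Atp2b1 1428937_at differed by 3.54 between 4 and 2 rounds at 1 pg and by -0.38 at 0.1 pg, an interaction of -3.92 (SE 0.97; 95% interval -5.98 to -1.86; limma adjusted p = 0.0373). In 3 of the 4 groups its mean was below the array median, so the -0.38 compares a pair of low levels. The call was lost without any 1 of 10 of the 12 arrays (highest limma adjusted p = 0.0932), and kept without replicate 3 of 0.1 pg after 2 rounds or replicate 1 of 1 pg after 4 rounds. It was also lost in a fit of these groups alone (limma adjusted p = 0.0535) and with the replicate number as a block (limma adjusted p = 0.0507). For the other 4 that rose with rounds at 1 pg, the interaction lay between -1.98 and -1.13 and was not called. It was 0.95 for Atp2b2 1433888_at, with an interval from -0.50 to 2.40, so its call at 0.1 pg and not at 1 pg does not show a difference between the inputs.

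Against bulk mRNA, the mean of the 6 amplified groups was lower for 1 of the 22 and higher for 0, where 1.03% of all probe sets were lower and 1.1% were called. This was Atp2a2 1452363_a_at, which fell by 4.95 (SE 0.88; 95% interval -6.80 to -3.09; limma adjusted p = 0.0124). All 16 amplified arrays, between -2.85 and 2.48, were below the 4.66 of bulk. Atp2b2 followed without a call, at -2.34 on 1433888_at (limma adjusted p = 0.0849) and -2.86 on 1420403_at (limma adjusted p = 0.106), each below bulk on 15 of 16 arrays. Atp2b3 1442645_at was above bulk on all 16 arrays, by 1.88 (95% interval 0.30 to 3.47; limma adjusted p = 0.278), and Atp1b2 1435148_at differed by 0.12, with 8 of 16 arrays below bulk. Atp2b2 1433888_at was called too with unscaled values or without replicate 1 of 0.1 pg after 2 rounds, and both Atp2b2 probe sets without the array of 10 pg after 2 rounds, for counts of 2, 2 and 3. Bulk is 1 array, whose spread the fit takes from the other groups, so a deviation of this array and an effect of amplification cannot be told apart.

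The spread between arrays of a group was somewhat wider for the pump probe sets than for all. The median SD over the 22 was 0.54 from 10 pg, 0.70 from 1 pg and 0.48 from 0.1 pg after 4 rounds, against 0.42, 0.52 and 0.44 over all probe sets. After 2 rounds it was 0.54 from 1 pg and 0.91 from 0.1 pg, against 0.50 and 0.84. The widest SDs were those of Atp1b1 1439036_a_at (3.05, 1 pg after 4 rounds) and Atp1b2 1422009_at (2.41, 0.1 pg after 2 rounds).

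Other genes of sodium and calcium transport were counted from 4 lists, 44 genes of which 39 were measured, each by its probe set of highest mean. The remaining genes of the lists are not analysed here. From 10 to 0.1 pg after 4 rounds, 2 of the 39 rose and 2 fell, where 4.99% of all genes rose and 4.99% fell. The count of pump probe sets above is of another unit. By their probe sets of highest mean, Atp2b1 and Atp2b2 fell, and Atp1b1, Atp1b2, Atp2a2, Atp2b3 and Atp2b4 were not called. The median difference of the 39 was 0.14, against 0.13 over all genes. By list, 0 of 13 sodium and proton pump subunits and FXYD regulators, 2 of 8 other calcium pumps and pump partners, 0 of 8 sodium-calcium exchangers and 2 of 10 genes of store release and refill were called.

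Atp2a3, the SERCA pump of platelets and lymphoid cells, rose by 3.11 (limma adjusted p = 0.000847), from 0.52 ± 0.88 to 3.63 ± 0.42 (SD, n = 3 each), and Stim2, a calcium sensor of the endoplasmic reticulum, by 2.72 (limma adjusted p = 0.0372). Nptn, which codes for the PMCA partner neuroplastin, fell by 1.42 (limma adjusted p = 0.0338), from 1.90 ± 0.22 to 0.47 ± 0.21 (SD, n = 3 each). Ryr2, a calcium release channel, fell by 2.80 (limma adjusted p = 0.00533), and it was also the 1 of 39 called between 10 and 1 pg, where it fell by 2.65 (limma adjusted p = 0.0334) and 0.577% of all genes fell. Atp1b3, the remaining sodium pump beta subunit expressed in brain, was not called in any of the 8 comparisons, with 0.96 between 10 and 0.1 pg.

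Between 1 and 0.1 pg, Atp2a3 rose by 2.67 after 4 rounds (limma adjusted p = 0.00781) and fell by 3.06 after 2 rounds (limma adjusted p = 0.0112). These were 1 of the 2 rises after 4 rounds, where 2.04% of all genes rose, and the only call after 2 rounds, where 1.15% of all genes fell. The other rise after 4 rounds was that of Slc8a1, the sodium-calcium exchanger NCX1, by 2.37 (limma adjusted p = 0.00893). With 4 against 2 rounds at 1 pg, where 1.92% of all genes rose and 2.19% fell, Fxyd5, a modulator of the sodium pump, rose by 1.79 (limma adjusted p = 0.0339), and Atp2a3 and Slc8a1 fell by 2.27 (limma adjusted p = 0.0185) and 2.56 (limma adjusted p = 0.00892). At 0.1 pg Atp2a3 alone rose, by 3.46 (limma adjusted p = 0.00267), where 1.69% of all genes did. The interaction was called for Atp2a3, at 5.73 (limma adjusted p = 0.00196), and Slc8a1, at 2.45 (limma adjusted p = 0.0357), where 3.03% of all genes were called higher. Against bulk 0 of the 39 were called by limma, where 0.824% of all genes were.

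By mean level, the pan-neuronal, excitatory and inhibitory marker lists were each lower at each smaller input, after 4 rounds and after 2. From 10, 1 and 0.1 pg after 4 rounds, the excitatory list averaged 0.99, 0.10 and -0.25 and the inhibitory one 1.97, 1.60 and 0.98. After 2 rounds, 1 and 0.1 pg gave 0.60 and -0.08 for the excitatory list and 1.22 and 1.03 for the inhibitory one. Arrays of neighbouring inputs partly overlapped in these 2 lists. The mean level of the 6 pan-neuronal markers was 5.09 ± 0.37 from 10 pg, 3.24 ± 0.27 from 1 pg and 2.13 ± 0.48 from 0.1 pg after 4 rounds, and 2.72 ± 0.15 from 1 pg and 1.20 ± 0.12 from 0.1 pg after 2 rounds (SD, n = 3 each). From 10 to 0.1 pg after 4 rounds 4 of the 6 fell (Snap25, Nefl, Stmn2 and Eno2). Of all genes, 4.99% fell and 4.99% rose in this comparison, which is the one counted for the marker lists below. Of the excitatory markers 1 of 4 fell (Neurod6) and of the inhibitory ones 1 of 5 (Slc32a1), with median differences of -0.35 and -0.38. With 4 against 2 rounds at 1 pg, where the pump probe sets had a median of 1.05, the median was 0.19 for the pan-neuronal, -0.97 for the excitatory and 0.37 for the inhibitory markers. The 6 astrocyte markers, of the cells in which Atp1b2 is known, averaged 0.98 ± 0.49 (range 0.46 to 1.45) from 10 pg and 1.80 ± 0.19 (range 1.68 to 2.02) from 0.1 pg, without overlap, and 0 of the 6 were called. Oligodendrocyte markers averaged 0.27 ± 0.36 (range -0.14 to 0.51) from 10 pg and 1.35 ± 0.11 (range 1.23 to 1.45) from 0.1 pg, also without overlap, and 1 of 5 rose (Mbp). Vascular markers averaged 1.15 ± 0.39 and 0.91 ± 0.058, with 1 of 4 called higher (Pdgfrb), and microglial markers 1.76 ± 0.31 and 1.86 ± 0.28, with 0 of 5 called. Choroid plexus markers, of another tissue rich in sodium pumps, averaged 0.17 ± 0.37 and 0.28 ± 0.11. Muscle markers, foreign to cortex, averaged -0.22 ± 0.19 (range -0.41 to -0.03) and 0.47 ± 0.16 (range 0.28 to 0.59), likewise without overlap, with 1 of 5 called higher. The array's 3′ minus 5′ control probe sets for Gapdh, a reading of transcript length, gave 4.73 ± 0.21 from 10 pg and 3.71 ± 0.028 from 0.1 pg after 4 rounds, those for beta-actin 1.13 ± 0.55 and -0.81 ± 0.16, and those for the transferrin receptor 4.73 ± 0.18 and 6.62 ± 0.77. The part of these differences in the pump results was not tested.

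The genes with the course most like each pump gene over the 17 arrays were found by Pearson's correlation between probe sets of highest mean, among 11841 genes above the array median. They were Rcbtb1 (r = 0.94) and Tomm22 (0.94) for Atp1b1, Leprotl1 (0.97) and Stam (0.97) for Atp1b2, Prkca (0.91) and Slc25a4 (0.91) for Atp2a2, Polm (0.87) and Ndfip1 (0.86) for Atp2b1, Slc13a3 (0.97) and Ywhae (0.96) for Atp2b2, Uhrf1bp1 (0.83) and Spcs1 (0.80) for Atp2b3, and Sftpb (0.92) and Foxn4 (0.91) for Atp2b4. All 17 arrays share 1 preparation, and the correlations describe a common course over input and rounds. Among the pump genes themselves, Atp1b1 ran with Atp2b4 (0.81), Atp2b2 (0.79) and Atp2a2 (0.79), whereas Atp1b2 ran with none of these (between -0.34 and -0.13) and with Atp2b1 by 0.53.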

How the data were processed

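The authors summarized each probe set with RMA 2.0, which the submitters' processing notes name, using the upper decile statistic according to the methods, and deposited log2 values between 1.56 and 15.8. The median centering and the scaling named in the methods are not in the deposited table: array medians ran from 5.64 to 6.01 and ranges between the 10th and 90th percentile from 4.22 to 4.99. Each array was therefore centered on its median, divided by that range and multiplied by the mean range of 4.64. Of 45101 probe sets, 64 controls were left out. Of the 45037 others, 34945 carried 1 gene symbol in the platform annotation, 932 several and 9160 none, and 0 symbols needed updating. All 17 columns were matched to samples by label. No pair of arrays shared more than 0.925% identical values. For arrays, their number per group limits the precision.

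limma 3.58.1 in R 4.3.3 (lmFit on 7 group means over 17 arrays, eBayes defaults) gave 16.4 total degrees of freedom. Adjustment followed Benjamini and Hochberg over 45037 probe sets (threshold 0.05). The script was tested on simulated data. Other steps used python 3.11.15, numpy 2.4.6, pandas 2.3.3, scipy 1.17.1 and matplotlib 3.10.9. The methods name a t-test at a false discovery rate of 0.1%, and both were run as alternatives, beside other scalings, a filter on low values, fits of the compared groups, a replicate block and each array left out. All member probe sets are named. Of the other transport genes, those called were named where a comparison had 5 or fewer, and the 2 genes most correlated with each member. Atp1b3 was named after its values were seen. The members and lists were chosen with earlier results of these data known. No genome was used, so no positions are given. The labels give a final amplification with a kit after 2 rounds, and the methods give 2 and 4 as totals.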

Additional observations from a re-analysis of the deposited data

Results flagged for a closer look

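The Atp2b1 probe set 1428937_at drew attention because the same contrast, 4 against 2 rounds, gave different estimates at the 2 inputs. The difference was 3.54 at 1 pg and -0.38 at 0.1 pg, and the interaction was -3.92 (SE 0.97; limma adjusted p = 0.0373). It was the call of 1 of the 22, where 3.59% of all probe sets were called. In 3 of the 4 groups the mean was below the array median. The call was lost without any 1 of 10 of the 12 arrays, in a fit of the 4 groups alone (limma adjusted p = 0.0535) and with a replicate block (limma adjusted p = 0.0507). The other Atp2b1 probe sets had interactions of -2.08 (limma adjusted p = 0.410) and -1.80 (limma adjusted p = 0.295), of the same sign and not called. Single arrays that stand apart were not sought by a formal rule, since every group has 1 or 3 arrays.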

How the results depend on the processing

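Every called member kept its direction under all alternatives run. With unscaled values as deposited, centering on the median without scaling, or quantiles made equal between arrays, the called members were those of the report, except that against bulk 2 were called with unscaled values and 2 with centering only. The filter on low values kept 18 of the 22 and left out Atp2a2 1452363_a_at, so that 0 were called against bulk. From 10 to 0.1 pg after 4 rounds 9 of the 10 stayed called under it and Atp1b1 1418453_a_at joined them (limma adjusted p = 0.0470). The methods' t-test called 4 instead of 10 from 10 to 0.1 pg after 4 rounds, and 0 from 1 to 0.1 pg after 4 rounds, 0 after 2 rounds, and 0 between rounds at 1 pg and at 0.1 pg. At a false discovery rate of 0.1%, 5 of the 10 were called and 0 in every other comparison. A fit of the compared groups alone called 12 from 10 to 0.1 pg (Atp1b1 1418453_a_at and Atp2b4 1445701_at were added) and 4 from 1 to 0.1 pg after 4 rounds (Atp1b1 1451152_a_at and Atp2b2 1433888_at were lost), 0 from 1 to 0.1 pg after 2 rounds, 0 between rounds at 0.1 pg and 0 for the interaction. Between 10 and 1 pg after 4 rounds the count was 0 under all alternatives run. Unscaled, the median of all probe sets moved against bulk from 0.10 to 0.30, and the share of rises among all calls from 6.67% to 22.2%. From 1 to 0.1 pg after 2 rounds that share went from 39.5% to 51.2%.

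Deviations of arrays with the same replicate number correlated between -0.20 and 0.14. Between 1 pg after 2 rounds and 10 pg after 4 rounds, each array correlated best with that of its own number, by 0.03 to 0.06. With at most 3 arrays a group, these values cannot settle whether the numbers pair the arrays. With the number as a replicate block, 1 instead of 2 was called from 1 to 0.1 pg after 2 rounds, 4 instead of 6 after 4 rounds and 0 instead of 1 for the interaction (limma adjusted p = 0.0507), and the other counts stayed the same.

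With each array left out in turn, where a group left with fewer arrays is assumed to vary like the others, the counts ran from 7 to 11 from 10 to 0.1 pg after 4 rounds, from 2 to 7 from 1 to 0.1 pg after 4 rounds, from 0 to 3 after 2 rounds, from 0 to 6 between rounds at 1 pg, from 0 to 4 between rounds at 0.1 pg, from 1 to 3 against bulk and from 0 to 1 for the interaction. Against bulk the count was 3 without the array of 10 pg after 2 rounds and 2 without replicate 1 of 0.1 pg after 2 rounds. For the interaction the count was 0 without replicate 1, 2 or 3 of 1 pg after 2 rounds, replicate 1 of 0.1 pg after 2 rounds, replicate 3 of 1 pg after 4 rounds, or replicates 1 or 2 of 0.1 pg after 4 rounds. Without 3 further arrays the count of 1 was another probe set, so Atp2b1 1428937_at itself was called in 2 of the 12 fits. The causes were not tested. Of 431 alternatives for single probe sets and genes, 309 kept their side of the threshold, 116 lost the call, 6 gained one and 0 reversed. All 6 gains and 3 of the losses came when the probe sets of a gene were summarized by their median and not by the one of highest mean. By that median Atp1b1 and Atp2a2 were called from 10 to 0.1 pg, Atp1b1 and Atp2b1 from 1 to 0.1 pg after 4 rounds, Atp1b1 between rounds at 1 pg and Atp2a2 against bulk. Atp2b2 lost its call from 1 to 0.1 pg after 2 rounds and between rounds at 0.1 pg, and Atp2a2 between rounds at 1 pg.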
